A study of Homo sapiens with 6 samples.

Results

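YAP1, its paralog WWTR1 (the gene of the protein TAZ), the DNA-binding partners TEAD1, TEAD2, TEAD3 and TEAD4, and the target genes CYR61, CTGF, AMOTL2 and LATS2 were followed in xenograft tumours grown from the human colorectal cancer line HT-29. The 10 genes were taken by symbol from a transcript-level expression table, out of 29236 annotated symbols. They hold 52 of its 116485 annotated transcripts. CYR61 and CTGF, now named CCN1 and CCN2, are listed there under the older symbols. The tumours fall into an untreated control group of 3 samples and a group of 3 samples treated with extracorporeal shock waves (pressure pulses delivered from outside the body) of 60 mJ. Samples of both groups date from day 15 of the therapy. The labels give all 6 samples the same cell line, the genotype WT and a single batch value. Whether each sample is its own animal is not stated, so a p-value speaks only to the spread among these samples, which may be technical. No label names the host animal, its age or the tumour site.

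In the Hippo pathway, the kinases STK3 and STK4 activate LATS1 and LATS2, which phosphorylate YAP and TAZ and so hold them in the cytoplasm or mark them for breakdown. When the kinases are less active, YAP and TAZ enter the nucleus and join TEAD proteins on DNA, since neither coactivator binds DNA by itself. Cell shape, matrix stiffness and other mechanical cues feed into this step. In the intestine YAP is best known for its part in regeneration after injury and in colorectal cancer growth. Much of the control is on the proteins and their location, which RNA levels do not measure.

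TEAD proteins recognise the letters GGAATG, or CATTCC when read on the other strand. Promoter windows of 250 bases before the start site (RefSeq, GRCh38.p14) were matched for 7 of the 10 genes, with 10 windows. One or more matches on either strand lay in 3 of these windows, those of CTGF, AMOTL2 and YAP1. Over all 35116 promoter windows, 11.9% held a match. The windows of WWTR1, TEAD2, TEAD3 and LATS2 held none of these letters. The CTGF window is shown whole because it holds 3 matches, beginning 169, 104 and 95 bases before the start site, and 3 or more matches lay in 29 of all windows (0.0826%). The AMOTL2 and YAP1 matches begin 69 and 162 bases before their start sites. Capitals mark the matched letters, each sequence runs 5′ to 3′ on the strand of its gene, and a match is a description, not a binding site.
CTGF, minus strand, chr6:131951373-131951622: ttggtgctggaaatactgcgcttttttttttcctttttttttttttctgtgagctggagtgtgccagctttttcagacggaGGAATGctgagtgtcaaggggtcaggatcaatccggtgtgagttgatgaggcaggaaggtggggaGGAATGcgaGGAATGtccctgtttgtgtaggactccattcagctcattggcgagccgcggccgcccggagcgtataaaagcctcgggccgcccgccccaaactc
AMOTL2, minus strand, chr3:134374499-134374528: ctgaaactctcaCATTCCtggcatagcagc
YAP1, plus strand, chr11:102110273-102110302: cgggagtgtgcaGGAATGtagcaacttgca

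Levels are FPKM (fragments for each kilobase of transcript and each 1000000 reads), summed over the annotated transcripts of a gene, and SD is over the 3 samples of a group. Changes are shock wave minus control on the log2(FPKM + 1) scale, where changes of weakly expressed genes come out too small, with an adjusted p threshold of 0.05. Of the 10 genes, 9 passed the filter of 1 FPKM in at least 3 samples, and WWTR1 did not. None of the 9 passed the threshold (limma, adjusted p from 0.648 for LATS2 to 0.977 for CTGF), nor did any of the 13448 genes tested (0%). In this fit on FPKM none of the 9 had an unadjusted p under 0.05, against 6.93% of all genes tested. Of the 9, 7 had a negative change, as did 51.6% of all genes. Their median change was -0.20, beside -0.01 over all genes. Both values include the third shock wave library, described below. Without it the change was 0.10 for TEAD3, 0.14 for AMOTL2 and -0.03 for TEAD1. LATS2 and YAP1 came to -0.30 and -0.11, whereas TEAD2 went to -0.64. The count and median of the 9 genes without that library were not computed. Because these are bulk samples, fewer cells of a type and less RNA per cell cannot be told apart.

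Library totals of 48298290 to 58539442 reads were inferred from the FPKM values and transcript lengths, not observed directly. Read counts given below were recovered in the same way. All 9 epithelial markers examined, EPCAM, CDH1, the keratins KRT8, KRT18, KRT19 and KRT20, CDX1, CDX2 and VIL1, were expressed. Their summed level, mostly keratins, was 5149 to 6571 FPKM in controls, against 5702 to 7938 with shock waves. The markers did not share a direction. Every shock wave tumour lay below every control in CDH1 (8.69% of all genes), and above in EPCAM, KRT18 and KRT19 (7.75%). The third shock wave library stood apart: its FPKM fell off with transcript length, by a slope of -0.24 log2 per doubling of length relative to the mean of the controls. The slope was -0.11 and -0.03 in the other shock wave libraries, and -0.01 to 0.01 in each control set against the other controls. Of the 10 genes, 6 had their lowest level in the third shock wave library, where 35.2% of all tested genes had theirs. Changes without this library are given below for the 9 tested genes. None was computed for WWTR1, which was under the filter.

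**Figure D1:**
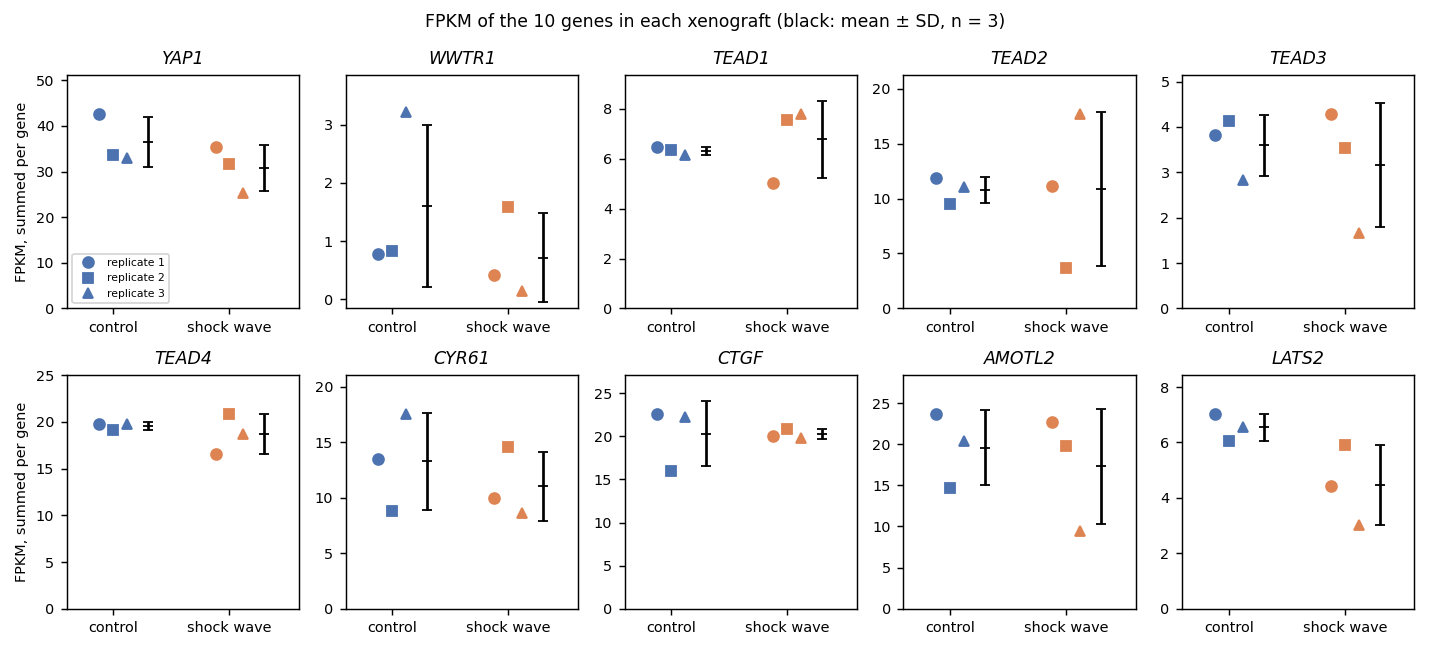
FPKM of each of the 10 genes in the 3 control and 3 shock wave tumours, 1 symbol per replicate number, on linear axes. Black bars give the mean and SD of each group. LATS2 is the gene whose groups do not overlap, and its lowest shock wave value is 3.02 FPKM.

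YAP1 (ENSG00000137693, chr11:102110461-102233423, plus strand, build hg38) encodes the coactivator that carries Hippo signals to the nucleus. It had the highest level of the 10 genes in every tumour, at 42.7, 33.6 and 32.9 FPKM without treatment, against 35.4, 31.6 and 25.3 FPKM after shock waves. The groups overlap, since the first shock wave tumour lies above the other two controls. The mean was 36.4 ± 5.49 FPKM (SD, n = 3) in controls and 30.8 ± 5.10 (n = 3) after shock waves. The log2 change was -0.24 (SE 0.17, 95% interval -0.65 to 0.18, limma adjusted p = 0.666). Without the third shock wave sample it was -0.11. Counted as reads per 1000000 annotated reads, YAP1 stood at 199, 197 and 193 in controls, against 175, 191 and 144 with shock waves. On that scale every shock wave tumour lay below every control, as was the case for 8.3% of genes, and the change by limma voom, a fit on reads that does not divide by transcript length, was -0.22 (SE 0.14, adjusted p = 0.67). By voom, 2 of 14626 genes passed the threshold (0.0137%), none of them among the 10.

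WWTR1 (ENSG00000018408, chr3:149517235-149736714, minus strand), which encodes the coactivator TAZ, had the lowest mean level. It stood at 0.772, 0.822 and 3.22 FPKM in controls, against 0.414, 1.59 and 0.143 with shock waves. The third control is high and the third shock wave tumour low, and the groups overlap. These levels rest on 42 to 466 reads per library, on which the voom change was -1.05 (SE 0.89, adjusted p = 0.700). The table lists 3 of the 12 WWTR1 transcripts of GENCODE 29, and reads on the other transcripts were not analysed here. Of the listed ones, the coding WWTR1-203 had the highest mean. It made up 62.2, 47.1 and 53.4% of WWTR1 FPKM in controls, against 65.3, 61.7 and 100% with shock waves. These shares overlap. WWTR1-210, which retains an intron, made up 35.5, 50.9 and 43.6% in the controls, against 0, 34.6 and 0% with shock waves. WWTR1-210 rests on 8, 13 and 38 reads in controls, against 0, 17 and 0 with shock waves. The WWTR1-210 shares do not overlap, by a narrow gap of 35.5 against 34.6% (exact two-sided permutation p = 0.1, the smallest possible, and 0.4 after adjustment over 18 transcript shares). How often shares do not overlap over all genes was not computed.

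Ordered by their mean over the 6 samples, the FPKM levels ran from YAP1 through CTGF, TEAD4, AMOTL2, CYR61, TEAD2, TEAD1, LATS2 and TEAD3 to WWTR1. Only for YAP1 and CTGF did the ranges of neighbours in this order not overlap.

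The TEAD genes encode the DNA-binding side of the complex, each with an amino-terminal TEA domain that contacts DNA and a carboxy-terminal domain that binds YAP or TAZ. TEAD4 (ENSG00000197905, chr12:2959330-3040673, plus strand) had the highest level of the family, at 19.8, 19.1 and 19.8 FPKM without treatment, against 16.5, 20.9 and 18.7 FPKM after shock waves. The groups overlap, and the log2 change was -0.07 (SE 0.14, 95% interval -0.39 to 0.25, limma adjusted p = 0.860), and -0.07 without the third shock wave sample as well. TEAD3 (ENSG00000007866, chr6:35473597-35497076, minus strand) stood at 3.83, 4.13 and 2.84 FPKM in controls, against 4.29, 3.53 and 1.66 with shock waves. The first shock wave tumour was the highest of all 6 and the third the lowest, and the log2 change of TEAD3 was -0.19 (SE 0.29, adjusted p = 0.815), or 0.10 without the third shock wave sample.

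TEAD2 (ENSG00000074219, chr19:49340595-49362457, minus strand) varied most among the shock wave tumours of the 4 TEAD genes. Its level was 11.9, 9.51 and 11 FPKM without treatment, against 11.1, 3.72 and 17.7 FPKM after shock waves. The second shock wave tumour is the lowest and the third the highest of all 6, with the controls between them. The group means were 10.8 ± 1.19 and 10.9 ± 7.01 FPKM (SD, n = 3 each), and the log2 change was -0.20 (SE 0.47, 95% interval -1.32 to 0.92, limma adjusted p = 0.885). Without the second shock wave sample the change was 0.36, and without the third it was -0.64.

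TEAD1 (ENSG00000187079, chr11:12674591-12944483, plus strand) stood at 6.47, 6.36 and 6.14 FPKM in controls, against 5.02, 7.54 and 7.81 with shock waves. The shock wave values lie on both sides of the controls, and the log2 change was 0.07 (SE 0.20, 95% interval -0.40 to 0.54, limma adjusted p = 0.906). Its reads were ordered differently. Per 1000000 annotated reads, TEAD1 had 26.0, 20.1 and 18.9 in controls, against 32.4, 41.2 and 76 with shock waves. Every shock wave tumour lay above every control, as for 7.63% of genes. The limma voom change was 1.13 (SE 0.37, unadjusted p = 0.022, adjusted p = 0.67). Without the third shock wave sample the FPKM change was -0.03.

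The 2 TEAD1 scales part at the transcripts. TEAD1-206 (ENST00000527636) is 2544 bases long with a coding sequence of 1278 bases. TEAD1-203 (ENST00000526600) is 8477 bases long. It lacks 330 coding bases of TEAD1-206 at the 5′ end, the end that encodes the TEA domain, begins its coding sequence in an exon of its own, and runs 6449 bases further at the 3′ end. Its first 42 coding bases, in capitals, are shown with the first 21 bases it shares with TEAD1-206.
TEAD1-203, plus strand, unique part chr11:12879666-12879707: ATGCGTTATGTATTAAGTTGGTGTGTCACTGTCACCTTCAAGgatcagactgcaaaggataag

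TEAD1-206 had 2.33, 2.71 and 2.06 FPKM without treatment, against 0.527, 1.06 and 0 FPKM after shock waves. Every shock wave tumour lay below every control (log2 change -1.19, SE 0.31, limma adjusted p = 0.561), as for 7.34% of the 28517 transcripts tested. TEAD1-203 had 1.61, 0.916 and 0.992 FPKM in controls, against 2.88, 3.50 and 7.81 with shock waves. Every shock wave tumour lay above every control (log2 change 1.32, SE 0.37, limma adjusted p = 0.636), as for 6.87% of transcripts. Without the third shock wave sample the change was -0.92 for TEAD1-206 and 0.96 for TEAD1-203. As a share of TEAD1 FPKM, TEAD1-203 made up 24.9, 14.4 and 16.2% in controls, against 57.4, 46.4 and 100% with shock waves. The exact two-sided permutation test of this share gave p = 0.1, the smallest that 3 against 3 samples allow, and 0.4 after adjustment over 18 transcript shares. In reads, TEAD1-203 took 713, 431 and 406 in controls, against 1348, 1640 and 3878 with shock waves. In the third shock wave library all TEAD1 reads were placed on it. The deposited values gave whole reads per transcript at the low values checked, and how reads were assigned to transcripts is not known. Whether the long 3′ end or the 5′ exons drew the TEAD1 reads was not tested.

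**Figure D2:**
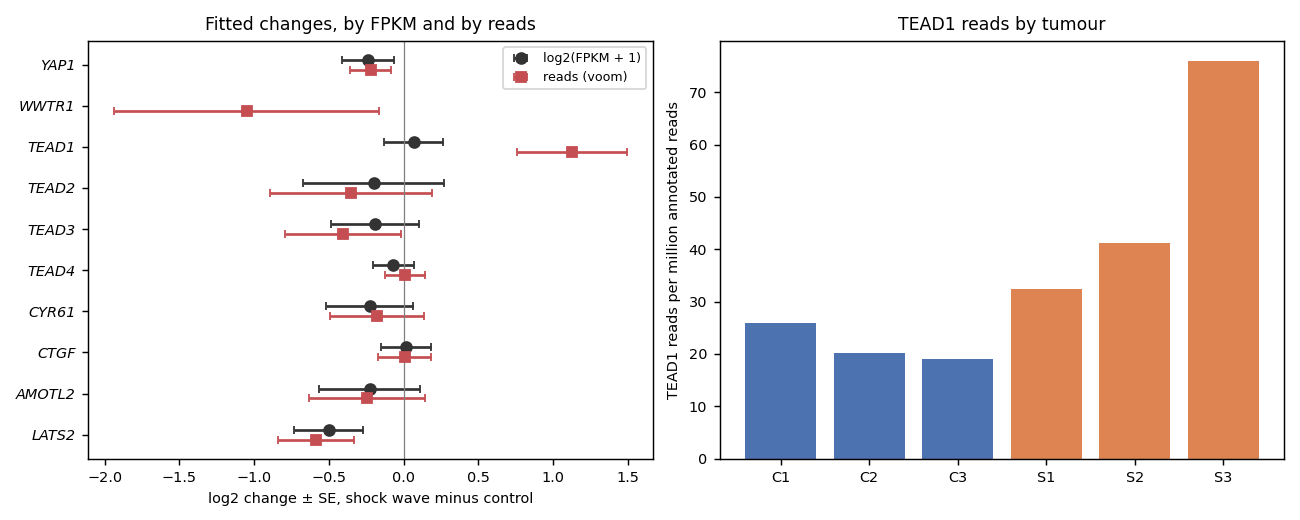
Left, log2 change with its SE for the 10 genes from FPKM (black circles) and from reads by voom (red squares); WWTR1 was under the FPKM filter. Right, TEAD1 reads per 1000000 annotated reads in controls C1 to C3 (blue) and shock wave tumours S1 to S3 (orange), from 18.9 in C3 to 76 in S3.

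The mix of TEAD2 transcripts also differed between samples. TEAD2-202 (ENST00000377214) and TEAD2-201 (ENST00000311227) have different first exons, and their coding sequences differ by 9 bases, 3 codons, shown in capitals between 21 bases of flank on each side.
TEAD2-202, minus strand, insert chr19:49355303-49355311: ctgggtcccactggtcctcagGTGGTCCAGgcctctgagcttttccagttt
TEAD2-201, minus strand, same junction: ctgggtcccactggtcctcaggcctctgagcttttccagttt

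TEAD2-202 had 11.4, 9.03 and 8.99 FPKM without treatment, against 6.72, 2.46 and 2.05 FPKM after shock waves. Every shock wave tumour lay below every control (log2 change -1.31, SE 0.39, limma adjusted p = 0.657), as for 7.34% of transcripts tested. The change was -1.06 without the third shock wave sample. TEAD2-201 had 0, 0.00833 and 1.25 FPKM in controls, against 3.46, 0 and 15 with shock waves. It is high in the third shock wave tumour, where TEAD2-202 is lowest, but is listed at 0 in the second, where TEAD2-202 is low as well. As a share of TEAD2 FPKM, TEAD2-202 made up 96.3, 95 and 81.6% in controls, against 60.5, 66.3 and 11.6% with shock waves. These shares do not overlap (exact two-sided permutation p = 0.1, the smallest possible, and 0.4 after adjustment over 18 shares), and the rate of this over all genes was not computed. Of the sum of TEAD2-202 and TEAD2-201 alone, TEAD2-202 made up 100, 99.9 and 87.8% in controls, against 66.0, 100 and 12% with shock waves (exact two-sided permutation p = 0.4).

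TEAD4 transcripts differ by a longer insert. TEAD4-202 (ENST00000359864) holds 129 coding bases, 43 codons, that TEAD4-201 (ENST00000358409) skips, shown in capitals with the same flanks.
TEAD4-202, plus strand, insert chr12:3017398-3017526: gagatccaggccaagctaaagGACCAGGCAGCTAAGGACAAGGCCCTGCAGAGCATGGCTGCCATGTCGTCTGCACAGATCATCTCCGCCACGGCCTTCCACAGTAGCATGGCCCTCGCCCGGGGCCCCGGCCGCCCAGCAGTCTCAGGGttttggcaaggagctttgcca
TEAD4-201, plus strand, same junction: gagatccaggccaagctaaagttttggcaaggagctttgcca

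TEAD4-202 had 8.28, 6.38 and 11.7 FPKM without treatment, against 14.6, 5.51 and 14.9 FPKM after shock waves, and TEAD4-201 had 4.75, 7.22 and 2.80 FPKM in controls, against 0.310, 9.56 and 2.12 with shock waves. In each group the sample with the least TEAD4-202 had the most TEAD4-201. The share of TEAD4-202 in their sum ran from 46.9 to 80.7% in controls, against 97.9, 36.6 and 87.6% with shock waves (exact two-sided permutation p = 0.7). The TEAD4 total, 16.5 to 20.9 FPKM, spread less than either transcript. In TEAD3, TEAD3-201 held 86.4 to 92.8% of FPKM in controls, against 75.0 to 86.7% with shock waves, which overlap.

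YAP1 has known splice forms that differ in the region of its leucine zipper. YAP1-201 (ENST00000282441) holds a 48-base coding segment of 16 codons, while YAP1-209 (ENST00000537274) lacks it and holds 12 other bases, 4 codons, at the same junction. Capitals mark the segments, and the 21-base flanks are shared.
YAP1-201, plus strand, segment chr11:102209517-102209564: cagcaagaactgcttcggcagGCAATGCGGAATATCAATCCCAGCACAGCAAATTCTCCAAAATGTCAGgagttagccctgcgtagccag
YAP1-209, plus strand, segment chr11:102206075-102206086: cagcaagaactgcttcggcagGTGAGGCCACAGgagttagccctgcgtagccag

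YAP1-201 had 23.2, 27.6 and 26.7 FPKM without treatment, against 2.99, 26.9 and 22.4 FPKM after shock waves. YAP1-209 had 0.584, 0 and 0 FPKM in controls, against 21.4, 0 and 0 with shock waves. YAP1-209 thus exceeded 1 FPKM in the first shock wave tumour alone, where YAP1-201 was lowest. YAP1-208, which also lacks the 48 bases, stood at 0.705 to 2.34 FPKM in all 6 samples. YAP1-207 (ENST00000529029), which begins further 3′ and carries both the 48 and the 12 bases, had 11 FPKM in the first control and 8.31 in the first shock wave tumour, and at most 0.0146 FPKM elsewhere. YAP1-210 holds both segments in the full-length frame. It stood at 2.93, 1.77 and 2.36 FPKM without treatment, against 0.436, 1.72 and 0.0158 FPKM after shock waves. Its log2 change was -1.07 (SE 0.40, limma adjusted p = 0.751). Every shock wave tumour lay below every control, as for 7.34% of transcripts tested, but by a narrow gap of 1.77 against 1.72 FPKM.

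**Figure D3:**
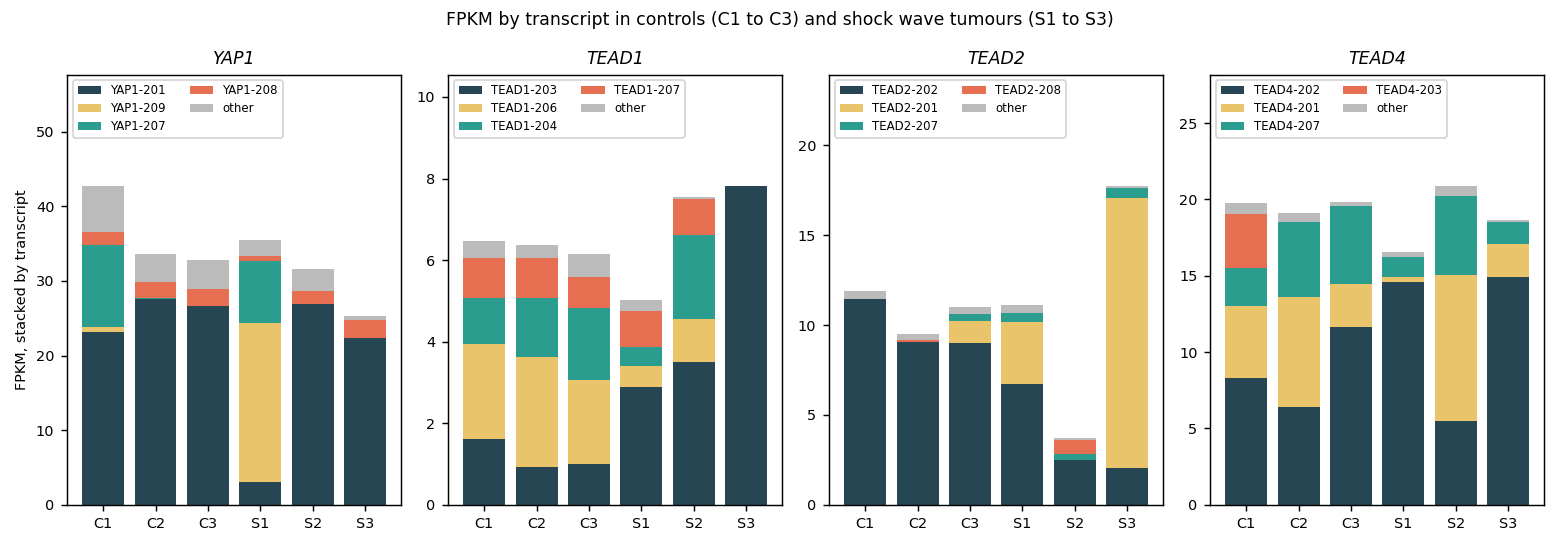
FPKM of the transcripts of YAP1, TEAD1, TEAD2 and TEAD4, stacked, in controls C1 to C3 and shock wave tumours S1 to S3; the 4 transcripts with the highest mean are coloured and the rest grey. TEAD1 in S3 is TEAD1-203 alone at 7.81 FPKM, and YAP1-209 appears as a large part in S1 alone.

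Over all 52 transcripts, 25 reached 1 FPKM in a sample and 17 passed the filter. No transcript of the 10 genes passed the threshold, whereas 58 of all tested did (0.203%). Of the 17, 4 had an unadjusted p under 0.05, against 6.58% of all transcripts, and these are TEAD1-206, TEAD1-203, TEAD2-202 and YAP1-210. The same 4 were the ones whose groups did not overlap, 3 lower and 1 higher, against 14.2% of all transcripts. The smallest permutation p of the 18 shares was 0.1.

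CTGF (ENSG00000118523, chr6:131948176-131951373, minus strand) and CYR61 (ENSG00000142871, chr1:85580761-85583962, plus strand) encode secreted matricellular proteins and are the most used readouts of YAP, TAZ and TEAD activity. CTGF has 1 transcript and stood at 22.6, 15.9 and 22.3 FPKM in controls, against 20.1, 20.9 and 19.8 with shock waves. All shock wave values lie within the range of the controls. The means were 20.3 ± 3.78 and 20.3 ± 0.577 FPKM (SD, n = 3 each), and the log2 change was 0.01 (SE 0.17, 95% interval -0.38 to 0.41, limma adjusted p = 0.977), or 0.03 without the third shock wave sample. CYR61 stood at 13.5, 8.80 and 17.6 FPKM without treatment, against 9.96, 14.6 and 8.63 FPKM after shock waves. The groups overlap, with the second control low and the third high. The log2 change was -0.23 (SE 0.29, 95% interval -0.91 to 0.46, limma adjusted p = 0.776). Single samples moved it both ways, to -0.01 without the third control, -0.08 without the third shock wave sample, -0.43 without the second shock wave sample and -0.48 without the second control. The coding transcript CYR61-201 held 84.0 to 94.1% of CYR61 FPKM in controls, against 93.7 to 95% with shock waves.

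AMOTL2 (ENSG00000114019, chr3:134355874-134374918, minus strand) encodes an angiomotin-like junction scaffold that binds YAP and restrains it, and its gene is also a YAP target. It stood at 23.7, 14.7 and 20.3 FPKM in controls, against 22.7, 19.8 and 9.44 with shock waves. The third shock wave tumour is the lowest, and the other shock wave tumours lie within the controls. The log2 change was -0.23 (SE 0.34, 95% interval -1.03 to 0.58, limma adjusted p = 0.813), and 0.14 without the third shock wave sample. AMOTL2-207, which retains an intron and has no coding sequence, made up 51 to 59.1% of AMOTL2 FPKM in controls, against 50.9 to 61.5% with shock waves, and the coding AMOTL2-202 made up 35.9 to 39.3% over all samples.

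LATS2 (ENSG00000150457, chr13:20973032-21061547, minus strand) encodes a kinase that inactivates YAP and TAZ and is itself one of their targets. It stood at 7.03, 6.05 and 6.54 FPKM without treatment, against 4.43, 5.91 and 3.02 FPKM after shock waves. Every shock wave tumour lay below every control, as was the case for 8.69% of all tested genes. The means were 6.54 ± 0.492 and 4.45 ± 1.44 FPKM (SD, n = 3 each), and the log2 change was -0.50 (SE 0.23, 95% interval -1.05 to 0.05, limma adjusted p = 0.648). It was -0.30 without the third shock wave sample and -0.69 without the second. In reads per 1000000 the groups overlapped, at 42.6, 36.5 and 38.0 in controls, against 25.1, 36.9 and 19.1 with shock waves. LATS2-201 is its main transcript, with 85.9% or more of the FPKM in every sample.

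Genes of the pathway were also read from lists chosen by role, which again include LATS2, CYR61, CTGF and AMOTL2. None of the lists had a gene past the threshold (smallest limma adjusted p 0.648, that of LATS2 among others). Of the 79 different genes tested in them, 6 had an unadjusted p under 0.05, beside 6.93% of all genes. Among the 7 core kinase genes, 4 changes were negative and 3 positive, with a median of -0.05. LATS1, the paralog of LATS2, stood at 7.30, 8.04 and 7.31 FPKM in controls, against 6.20, 7.92 and 4.32 with shock waves (log2 change -0.29, SE 0.22). The list of kinases that phosphorylate LATS or STK3 and STK4 in parallel, the TAO and MAP4K kinases and STK25, had 10 tested genes. Of these, 9 changes were negative, with a median of -0.25. Without the third shock wave sample 7 were negative and 3 positive with a median of -0.15, and without the second the median was -0.46. TAOK3 stood at 6.34, 7.08 and 6.61 FPKM without treatment, against 3.47, 3.39 and 4.25 FPKM after shock waves (log2 change -0.71, SE 0.17, limma adjusted p = 0.648). MAP4K4 stood at 5.95, 6.61 and 9.02 FPKM in controls, against 4.26, 4.55 and 2.26 with shock waves (log2 change -0.82, SE 0.27). In both, and in TAOK1 and TNIK, every shock wave tumour lay below every control, so in 4 of the 10, beside 8.69% of all genes.

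Upstream scaffold and junction genes had 9 negative and 5 positive changes among 14 tested, with a median of -0.09. WWC1, the KIBRA scaffold that promotes LATS activation, stood at 26.2, 31.0 and 14.2 FPKM without treatment, against 14, 9.07 and 7.75 FPKM after shock waves (log2 change -1.11, SE 0.33). In WWC1 every shock wave tumour lay below every control, with a narrow gap between the third control and the first shock wave tumour. The groups lay apart in this direction in 5 of the 14, PTPN14 included, beside 8.69% of all genes. In 1 of the 14 every shock wave tumour lay above every control, beside 7.75% of all genes. PTPN14, a phosphatase that binds YAP and is also a YAP target, stood at 7.61, 5.88 and 6.56 FPKM in controls, against 2.70, 5.74 and 2.26 with shock waves (log2 change -0.82, SE 0.30).

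Genes whose products oppose LATS or STK3 and STK4, the Ajuba family and the STRIPAK phosphatase complex, had 10 negative and 3 positive changes among 13 tested (median -0.15), or 7 negative and 6 positive without the third shock wave sample. The STRIPAK member SIKE1 had the smallest p of these, with a log2 change of -0.26 (SE 0.14). Among 11 genes for 14-3-3 proteins and the machinery of YAP breakdown, 7 changes were negative and 4 positive (median -0.06). FBXW11, a ubiquitin ligase subunit, had a change of -0.37 (SE 0.16) and the 14-3-3 gene YWHAB one of 0.85 (SE 0.40). YWHAB was low in the second control alone, at 51.7 FPKM against 136 and 157 in the other controls. The VGLL cofactors, which compete with YAP for TEAD, had 2 tested genes, VGLL1 at 0.31 (SE 0.30) and VGLL4 at -0.10 (SE 0.38).

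A list of 22 YAP and TAZ target genes common to many cancers, which includes CYR61, CTGF, AMOTL2 and LATS2, had 20 genes in the table, and 17 passed the filter. Of these 17, 13 had a negative and 4 a positive change, with a median of -0.23. In 4 every shock wave tumour lay below every control (8.69% of all genes) and in 1 above (7.75%). Of the 17, 12 had their lowest value in the third shock wave library. Without that library 9 changes were negative and 8 positive, with a median of -0.04. With the length trend removed per library, 10 were negative and 7 positive, with a median of -0.11. The smallest p belonged to PTPN14 and to GADD45A, a stress response gene at 19.4, 22.6 and 18.8 FPKM without treatment, against 23.3, 28.7 and 28.1 FPKM after shock waves (log2 change 0.38, SE 0.14, limma adjusted p = 0.648). Among 7 genes of the YAP-driven regenerative state of the gut, 4 changes were positive and 3 negative (median 0.14). IL33, which encodes an alarmin cytokine, had a change of -0.61 (SE 0.56). It stood at 0.798, 8.06 and 2.43 FPKM in controls, against 1.07, 2.20 and 1.39 with shock waves. All shock wave values of IL33 lie within the range of the controls, of which the second is high.

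**Figure D4:**
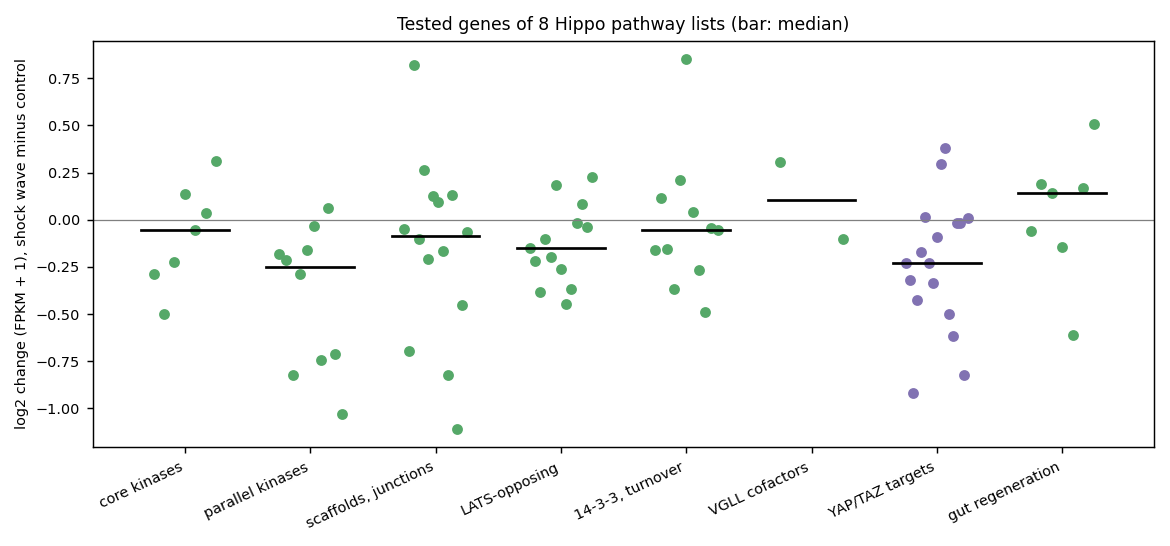
Log2 change of every tested gene in 8 lists of Hippo pathway genes, 1 point per gene, with the list's median as a bar and YAP and TAZ targets in purple. The medians run from -0.25 for the parallel kinases to 0.14 for the regenerative genes.

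CYR61 and CTGF are also made by fibroblasts, pericytes and endothelium, so markers of those cells are set beside them. The summed level of 7 listed fibroblast markers was 26.7, 11 and 12.5 FPKM in controls, against 4.80, 16.0 and 6.88 with shock waves, with COL1A1 the highest of them in every sample but the first shock wave tumour, and with COL3A1, DCN, THY1 and POSTN each at or below 0.0471 FPKM. Of 8 pericyte and smooth muscle markers, the sum was 30.8, 33.4 and 37.4 FPKM without treatment, against 27.1, 29.1 and 16.4 FPKM after shock waves, mostly CSPG4. The smooth muscle genes on that list did not share a direction. TAGLN stood at 1.68, 2.25 and 2.32 FPKM in controls, against 0.218, 0.986 and 0.164 with shock waves. ACTA2 stood at 1.14, 0.960 and 1.32 FPKM without treatment, against 2.57, 1.38 and 1.05 FPKM after shock waves. DES stood at 0.398, 0.611 and 0.203 in controls, against 0.723, 1.29 and 0.552 with shock waves. MYH11 stood at 0.264, 0.434 and 0.517 in controls, against 0.394, 0.155 and 0.151 with shock waves. DES and MYH11 were under the filter. The 4 endothelial markers, PECAM1, CDH5, VWF and TEK, summed to 0.0832 to 0.693 FPKM. The 3 macrophage markers, mostly CD68, summed to 11.7 to 18.5 FPKM in controls, against 10.4 to 12.7 with shock waves. All these markers were read as human transcripts on build hg38, so their sums are not a measure of host cells in the xenografts. The part of other cells, and of reads from the host, in the levels of the 10 genes was not tested.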

How the data were processed

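The authors deposited 1 table of 131516 transcripts with a value for each of the 6 samples on build hg38, per the submitters' processing notes. The deposited values were taken as FPKM: times transcript length (GENCODE 29) they gave whole reads for 99.64 to 99.70% of low values, within 0.05 of a read. The aligner and counter, and whether host reads were removed, are not named in the sources used here. Libraries came from Trizol-extracted total RNA with a SMARTER mRNA-seq kit, per the labels' protocols. Groups follow the treatment labels. Assembled transcripts without a gene (15031) were left out, and FPKM were summed per symbol.

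Genes and transcripts with at least 1 FPKM in at least 3 samples were fitted with limma 3.58.1 (R 4.3.3) on log2(FPKM + 1) with a variance trend, and p-values were adjusted by Benjamini-Hochberg over all features tested. Limma voom on recovered reads was an alternative. Transcript shares were compared by exact permutation over 20 arrangements (scipy 1.17.1). The gene fit was tested on simulated data. The genes and lists were chosen with earlier results of these data known. All 10 genes are named, with up to 2 transcripts each by mean level; from each list the 2 genes with the smallest p are named, except 2 that are not reported here. YAP1-207, YAP1-208, YAP1-210, TNIK, TAOK1, TAGLN, ACTA2, DES, MYH11 and the low YWHAB control were picked after their values were seen. Genes sharing reads with paralogs or overlapping genes are uncertain. No sample column was left unused.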

Additional observations from a re-analysis of the deposited data

How the results depend on the processing

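No gene or transcript of the 10 passed the threshold under any of 15 alternatives, nor did any gene of the pathway lists. Over all genes the count of calls was 0 and became 2 with voom on reads, and 0 to 5 with 1 replicate left out, the 5 without the second shock wave sample. Over all transcripts, 58 calls became 5 with no filter, 18 with a filter of 5 FPKM, 32 with a pseudocount of 0.1, 0 with voom and 1 to 31 with 1 replicate left out; the cause was not tested. Of 444 recomputed changes of single genes, transcripts and list medians, 438 were counted as the same and 6 as moved. No gene or transcript crossed the threshold. A gene or transcript counted as the same if it kept its direction, whatever its size, or changed direction by less than 1 SE. A list median had to move by less than the median SE of its genes. Sizes could still shift: TEAD1 went from 0.07 to 1.13 with voom. Over the alternatives TEAD1-206 reached -4.48 and TEAD2-201 reached 4.05. The 6 were TEAD2 (0.36 without the second shock wave sample), TEAD3 and AMOTL2 (0.10 and 0.14 without the third), and the medians for core kinases (-0.36 without the second shock wave sample), 14-3-3 and turnover genes (-0.22 with quantile normalization) and regenerative genes (-0.15 without the first control). Within 1 SE, the VGLL median (0.10, over 2 genes) was negative under 5 alternatives, down to -0.19 without the second control, and that of scaffold genes went from -0.09 to 0.02 with the length trend removed. Without the second shock wave sample the medians of scaffold, LATS-opposing, turnover and target genes were -0.21, -0.25, -0.17 and -0.36. The target median was -0.06 without the third control, and that of regenerative genes 0.02 without the third shock wave sample. Replicate numbers were not shown to pair samples: same-numbered samples correlated at -0.01, -0.01 and 0.03 in their deviations from the group means, and with the replicate block 0 genes and 0 transcripts were called. Depth limits WWTR1 most, at 42 reads in one library.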

Other observations

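Over the 6 samples, the genes whose log2(FPKM + 1) ran closest to YAP1 were AL139396.1 (Pearson r 0.996), RBMS2 (0.993) and PLD2 (0.989). RBMS2, which encodes an RNA-binding protein, stood at 14.9, 10.5 and 10.1 FPKM without treatment, against 11.7, 9.22 and 5.86 FPKM after shock waves, high in the first sample of each group as YAP1 was. Closest to CYR61 were RDX (0.992), TRAM1 (0.986) and DENND5A (0.981). RDX, which encodes the membrane-actin linker radixin, stood at 10.9, 8.46 and 14.1 FPKM in controls, against 8.99, 11.7 and 8.32 with shock waves. These were picked as the highest of 13448 genes over samples that share library and depth, and are a description.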
